A study of Bos taurus with 6 samples.

Results

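PPAR-driven fuel switch genes are described here in muscle of 6 steers on 2 vitamin A diets. The set holds 7 genes, PDK4, UCP2, UCP3, ANGPTL4, PPARA, PPARD and PPARGC1A, which were chosen by name. A probe set of the array was a member where the platform annotation gives it exactly 1 gene symbol and that symbol is one of the 7. All 7 genes were found, with 15 probe sets between them, among 9155 genes and 13292 probe sets named in this way. PPARGC1A has 4 probe sets, PDK4 and PPARD have 3 each, PPARA has 2, and UCP2, UCP3 and ANGPTL4 have 1 each. The symbols of all 7 genes matched a current protein-coding gene record.

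The restricted group was 3 castrated male cattle of the Japanese Black breed whose vitamin A supply was limited, and which were 589, 595 and 611 days old at sampling. The supplemented group was 3 castrated males of the same breed that were given vitamin A by mouth at 296.8 IU per kg body weight each week, and which were 600, 612 and 618 days old. Both groups began at 13 to 14 months of age and were fattened for 7 months toward a daily gain of 1.0 kg. RNA came from longissimus thoracis, the long muscle of the back, and each steer has 1 array. The labels name no genetic modification, and each array is a different animal, so the p-values rest on how steers of 1 diet differ from each other. Those of limma also rest on a prior spread estimated over all probe sets. In the narrowest probe sets that prior is wider than their own spread and raises the p-value.

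PPARA and PPARD are nuclear receptors that bind fatty acids and, paired with a retinoid X receptor, switch on genes for burning fat. PPARGC1A encodes PGC-1 alpha, a coactivator that drives these receptors and the making of mitochondria. In skeletal muscle the programme is best known from fasting and endurance exercise, when fibres turn from glucose to fatty acids. PDK4 then shuts the pyruvate dehydrogenase complex, UCP3 of the inner mitochondrial membrane is induced, and ANGPTL4 inhibits lipoprotein lipase. The retinoid X receptor is shared with the receptors of retinoic acid, the active form of vitamin A.

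The deposited log2 values of this table differ very little between arrays, and why is not stated in the sources used here. Over the 24016 probe sets tested, the median gap between highest and lowest array was 6.77e-07 log2 units. Differences are therefore not read as fold changes. They are given in deposited log2 units, or in millionths of such a unit, and in units of that probe set's own standard deviation (SD) within a diet. The medians of the 6 arrays lay 8.88 millionths apart. This exceeds the full range of 11 of the 15 member probe sets and of 85.9% of all tested. Constants of that size, added to the arrays, can thus set the direction of a difference in those 11. Where it matters, the value with equal array medians, each array moved by a constant, is given too. In a probe set much narrower than 8.88 millionths that value mostly shows the constants and not the gene. It came to -0.746 SDs in ANGPTL4, and to -0.751 SDs in both the lymphocyte marker CD79A and the endothelium marker KDR. All 7 measured skeletal muscle fibre markers, ACTA1 and CKM among them, had a mean above the median of all tested probe sets, as had all 5 adipocyte markers and 0 of 4 red blood cell markers. In whole muscle, fewer cells of a type and less RNA per cell cannot be told apart.

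PDK4 and UCP3 varied more from steer to steer than nearly all other genes on the array, and neither differed between the diets beyond the spread within them. All 3 probe sets of PDK4 ranged over more than 0.01 log2 units across the 6 steers, which 34 probe sets of the table did, or 0.142% of those tested. They were the 8th, 9th and 25th widest of all, and PDK4 was the 1 gene with 3 probe sets among these 34. UCP3 was the 48th widest, at 0.00627. The other 5 genes had ranges from 0.021 to 4.94 millionths.

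PDK4, pyruvate dehydrogenase kinase 4, phosphorylates and so inhibits the complex that feeds pyruvate into the citric acid cycle. Its probe set Bt.13330.1.S1_at had deposited log2 values of 7.9041, 7.9106 and 7.9129 in restricted steers 1, 2 and 3, against 7.8971, 7.9102 and 7.9080 in supplemented steers 1, 2 and 3. Bt.23505.1.S1_at had 7.6678, 7.6847 and 7.6785 in the restricted steers, against 7.6564, 7.6747 and 7.6696 in the supplemented steers. Bt.13330.2.A1_at had 6.7711, 6.7774 and 6.7850 in the restricted steers, against 6.7550, 6.7774 and 6.7738 in the supplemented steers. In all 3 probe sets supplemented steer 1 was lowest, restricted steer 1 was next, and the 2 highest were restricted steers 2 and 3. The groups overlapped in each of them, because restricted steer 1 lay below supplemented steers 2 and 3.

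The difference between the diets in PDK4 was 0.00405 ± 0.00483 log2 units for Bt.13330.1.S1_at, 0.0101 ± 0.00736 for Bt.23505.1.S1_at and 0.00907 ± 0.00802 for Bt.13330.2.A1_at (restricted minus supplemented, SE, n = 3 each). These equal 0.685, 1.12 and 0.923 within-group SDs, with limma unadjusted p values of 0.420, 0.213 and 0.291. The 95% intervals ran from -1.37 to 2.74 SDs, from -0.935 to 3.17 SDs and from -1.13 to 2.98 SDs, so neither no difference nor one of more than 2 SDs is excluded by any of them. Diet took up 14.9%, 31.9% and 24.2% of the sum of squares over the 6 steers. Without supplemented steer 1 the difference in Bt.13330.1.S1_at was 0.0128 SDs, in Bt.23505.1.S1_at 0.662 SDs and in Bt.13330.2.A1_at 0.376 SDs.

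The 3 PDK4 probe sets ordered the steers almost alike. Bt.13330.1.S1_at and Bt.13330.2.A1_at correlated at Pearson's r of 0.981 over the 6 arrays, and Spearman's rho was 1 (exact permutation p = 0.00139 and p = 0.00278, adjusted 0.0472 and 0.0944). Bt.23505.1.S1_at correlated with them at r of 0.914 and 0.877, with a rho of 0.943 in both (exact permutation p = 0.00833 and p = 0.0319 for r, p = 0.0167 for rho, adjusted 0.142, 0.362 and 0.189). Without the 2 steers farthest from the median, r was 0.9695, 0.611 and 0.974 in the same order. In all 34 relations were computed, 13 between probe sets of 1 gene and 21 between genes, and the p values are adjusted over them by the Benjamini-Hochberg method. Probe sets of the other genes agreed less: r ran from -0.822 to 0.696 in PPARD, from -0.709 to 0.662 in PPARGC1A, and was 0.261 in PPARA, with no adjusted p below 0.486. The r between the brightest probe sets of 2 members was highest for PDK4 and UCP2, at 0.802 with a rho of 0.829 (exact permutation p = 0.0528 and p = 0.0583, adjusted 0.449 and 0.496; r = 0.655 without the 2 farthest steers).

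**Figure D1:**
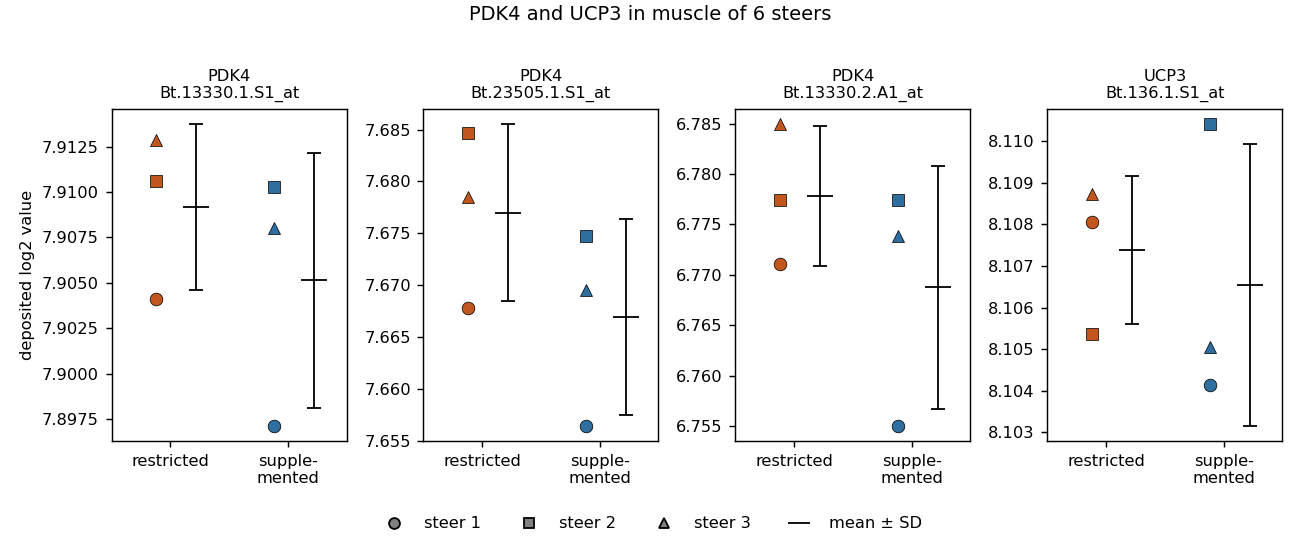
Deposited log2 value (y axis, a separate scale in each panel, not from 0) of the 3 PDK4 probe sets and the UCP3 probe set in 3 restricted and 3 supplemented steers; each symbol is 1 steer, and bars are the mean and SD of a group. Supplemented steer 1 is lowest in every panel, from 6.7550 to 8.1041, and the groups overlap in every panel.

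UCP3 encodes the uncoupling protein 3 of muscle mitochondria, a carrier whose expression follows fatty acid supply. Its probe set Bt.136.1.S1_at had deposited log2 values of 8.1081, 8.1054 and 8.1087 in restricted steers 1, 2 and 3, against 8.1041, 8.1104 and 8.1050 in supplemented steers 1, 2 and 3. The highest and the lowest value both belonged to supplemented steers. The difference of 0.000848 ± 0.00221 log2 units, or 0.313 SDs, had a limma unadjusted p of 0.704 and a 95% interval from -1.74 to 2.37 SDs. Without supplemented steer 2 it was 1.85 SDs and without supplemented steer 1 -0.132 SDs, and quantile normalization turned it to lower. Within the restricted group the highest steer was 3 and the lowest 2, whereas PDK4 had restricted steer 1 lowest there.

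UCP2 encodes a related carrier that is found in many tissues and in immune cells. Relative to the mean of the 6 arrays, its probe set Bt.5180.1.S1_at deviated by -0.72, 0.22 and 1.23 millionths in restricted steers 1, 2 and 3, against -0.78, -0.24 and 0.28 millionths in supplemented steers 1, 2 and 3. The groups overlapped, with the highest value in restricted steer 3 and the lowest in supplemented steer 1. The difference was 0.489 millionths or 0.626 SDs (limma unadjusted p = 0.459), with a 95% interval from -1.43 to 2.68 SDs, and was -0.484 SDs with equal array medians and -0.00405 SDs without restricted steer 3. UCP2 ranged over 2.00 millionths, against 6271 millionths in UCP3. Of macrophage markers, which belong to cells known to express UCP2, 2 of 4 measured genes were higher and 2 lower in restricted steers, and 0 passed the limma test. All 4 were lower with equal array medians, where probe sets this narrow mostly show the constant added to each array. The part of macrophages in the UCP2 values was not tested.

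ANGPTL4, angiopoietin-like 4, is secreted by muscle and fat and blocks lipoprotein lipase, the enzyme that frees fatty acids from circulating fat. Its probe set Bt.4816.1.S1_at was among the steadiest of the table. The values spanned 0.021 millionths over the 6 steers, the 23596th widest of 24016, and of the 500 probe sets nearest to it in mean level 499 were wider. The deviations were 0.005, 0.010 and -0.010 millionths in restricted steers 1, 2 and 3, against -0.011, 0.006 and 0.000 millionths in supplemented steers 1, 2 and 3. The groups overlapped, and the difference was 0.349 SDs (limma unadjusted p = 0.902), turning to -0.746 SDs with equal array medians. LPL, lipoprotein lipase itself, ranged over 0.00679, the 44th widest of the table.

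**Figure D2:**
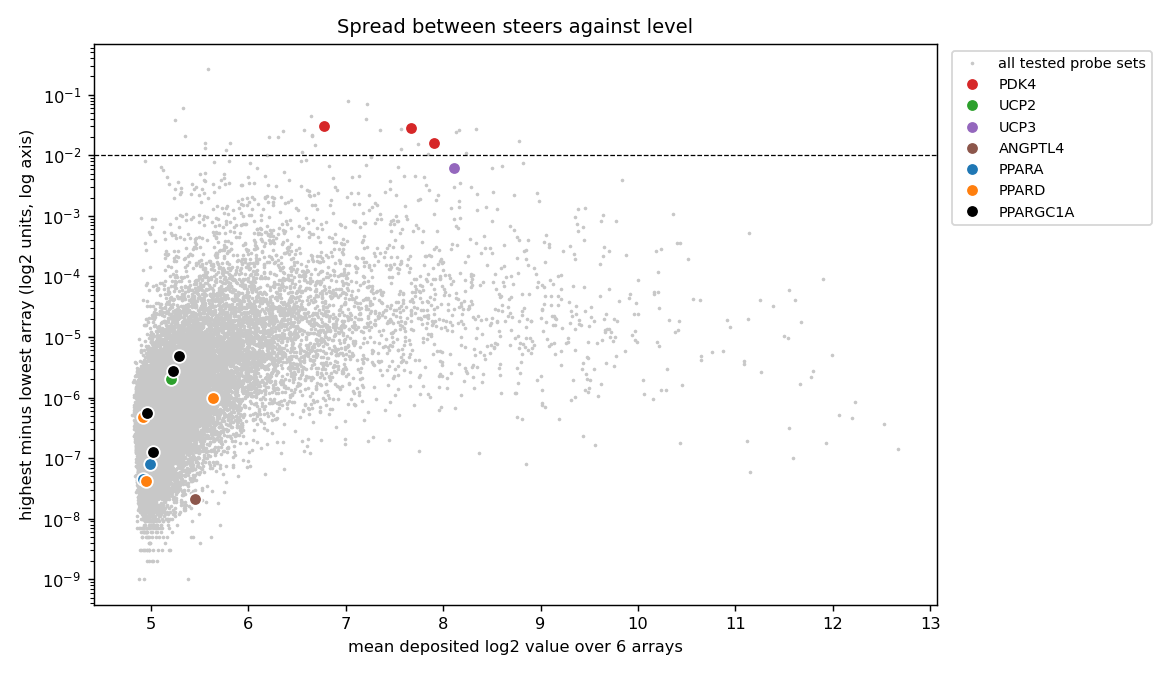
Range over the 6 steers (highest minus lowest array, log axis) against the mean deposited log2 value for all tested probe sets (grey; those with a range of 0 are not drawn) and the 15 member probe sets (coloured); the dashed line is at 0.01. The 3 PDK4 probe sets lie above the line, UCP3 just under it at 0.00627, and ANGPTL4 at the lower edge of the cloud for its level.

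Given their level, PDK4 and UCP3 also stood at the wide end. Of the 500 probe sets nearest in mean level, 6, 2 and 1 were wider than the PDK4 probe sets Bt.13330.1.S1_at, Bt.23505.1.S1_at and Bt.13330.2.A1_at, and 14 were wider than UCP3. For the brightest PPARGC1A probe set the number was 75, for UCP2 111, for PPARD 367 and for PPARA 411. The related kinases PDK2 and PDK3 ranged over 3.10e-06 and 8.04e-07 log2 units, and UCP1, the uncoupling protein of brown fat, over 2.60e-07. By brightest probe set, no gene of the 6 lists of partners and pathway genes described further on reached 0.01, and LPL had the widest range among them. Their other probe sets were not read.

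PPARA, the receptor that dominates fat oxidation in liver and is also active in muscle, has 2 probe sets with ranges of 0.081 and 0.045 millionths. Bt.12803.1.S1_at deviated by 0.029, -0.004 and -0.003 millionths in restricted steers 1, 2 and 3, against 0.026, -0.052 and 0.007 millionths in supplemented steers 1, 2 and 3. The groups overlapped, with supplemented steer 2 lowest. The difference was 0.431 SDs (limma unadjusted p = 0.710) for Bt.12803.1.S1_at and -1.03 SDs (unadjusted p = 0.579) for Bt.18241.1.A1_at, so the probe sets ran in opposite directions. With equal array medians the first was -0.744 SDs.

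PPARD, the receptor form most tied to oxidative muscle fibres, has 3 probe sets. The brightest, Bt.13264.1.S1_at, deviated by 0.16, -0.72 and 0.25 millionths in restricted steers 1, 2 and 3, against -0.03, 0.14 and 0.20 millionths in supplemented steers 1, 2 and 3. Restricted steer 2 alone stood low. The difference of -0.550 SDs (limma unadjusted p = 0.513) was 0.917 SDs without that steer and turned to higher with quantile normalization. Bt.22870.1.A1_at and Bt.22870.1.S1_at differed by 1.04 and 0.413 SDs (unadjusted p = 0.572 and unadjusted p = 0.622), both turning to lower with equal array medians.

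By brightest probe set, PPARGC1A had the widest range of the 3 regulators, 4.94 millionths against 0.971 in PPARD and 0.081 in PPARA. Its probe sets Bt.5823.1.S1_at and Bt.12148.1.S1_at, at 0.125 and 0.555 millionths, were narrower than the brightest of PPARD. The brightest PPARGC1A probe set, Bt.5814.1.A1_at, deviated by 2.03, 0.28 and -0.07 millionths in restricted steers 1, 2 and 3, against -2.90, 0.12 and 0.53 millionths in supplemented steers 1, 2 and 3. The ends were restricted steer 1 and supplemented steer 1, and the other 4 steers lay close together. The difference was 0.969 SDs (limma unadjusted p = 0.270), with a 95% interval from -1.08 to 3.02 SDs, and it was 0.453 SDs without supplemented steer 1. The other 3 probe sets differed by 0.420, -0.949 and -0.147 SDs (unadjusted p = 0.613, unadjusted p = 0.351 and unadjusted p = 0.858). With equal array medians all 4 were lower in restricted steers, at -0.201 SDs for the brightest.

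**Figure D3:**
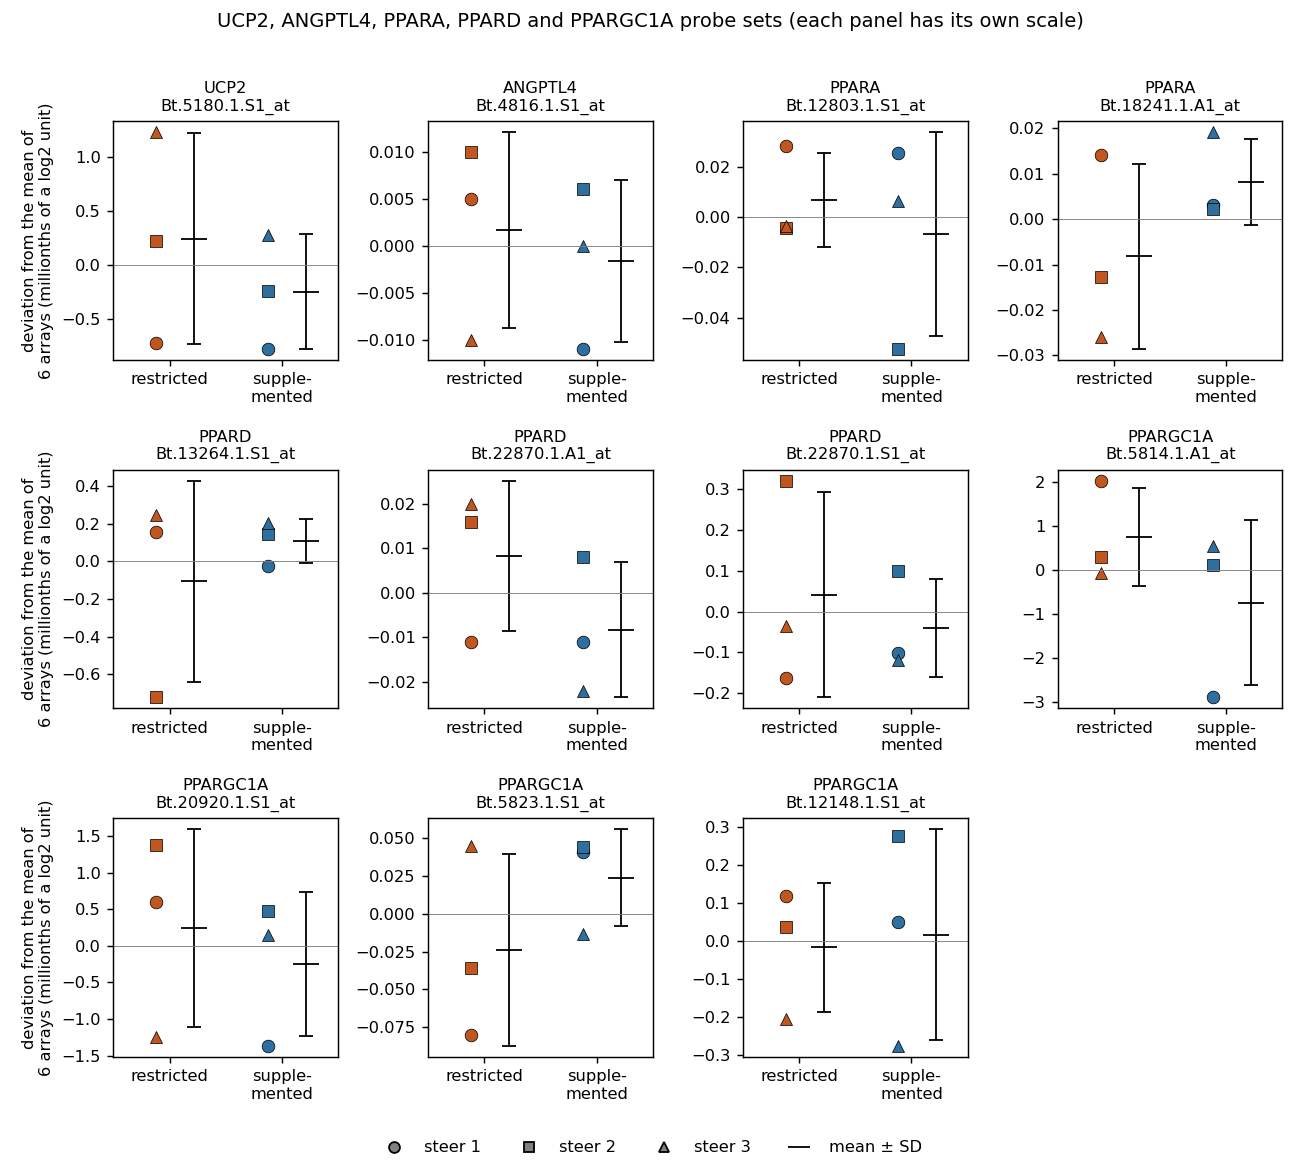
Deviation of each array from the mean of the 6 arrays, in millionths of a deposited log2 unit (y axis, a separate scale in each panel), for the 11 probe sets of UCP2, ANGPTL4, PPARA, PPARD and PPARGC1A; each symbol is 1 steer, and bars are the mean and SD of a group. The restricted and supplemented groups overlap in all 11 panels, and the scales run from hundredths of a millionth in ANGPTL4 to about 3 millionths in PPARGC1A.

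Over the whole set, 0 of 15 member probe sets passed the limma test at an adjusted p of 0.05, which 0.00416% of the 24016 probe sets did: 1, a probe set of DHRS3, a retinoid enzyme outside the set. At an unadjusted limma p under 0.05 there were 0 of 15 members, against 4.08% of all probe sets. In 0 of 15 did the groups not overlap, against 8.76% of all. The unadjusted p values ran from 0.213 in PDK4 to 0.902 in ANGPTL4. The size of the difference, whatever its sign, had a median of 0.626 SDs over the members and 0.582 SDs over all tested probe sets. Of the 15 members 11 were higher in restricted steers, against 48.3% of all probe sets, and several of the 15 are annotated to the same gene. With equal array medians 7 of these 11 turned to lower. All 7 ranged over less than the spread of the array medians, so the turns come from the constants added and say little of the genes.

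**Figure D4:**
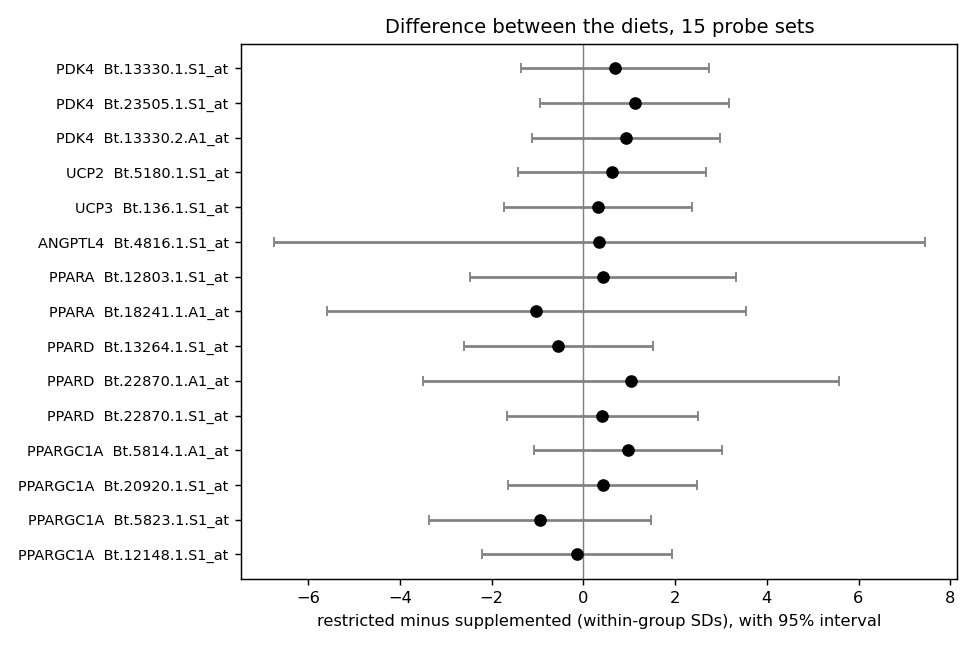
Difference between the diets (x axis, restricted minus supplemented, in within-group SDs) for the 15 member probe sets, with 95% intervals from limma. All 15 intervals span 0, and the points lie between -1.03 and 1.12 SDs.

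One steer was often at the low end. Supplemented steer 1 had the lowest value in 8 of the 15 member probe sets, namely all 3 of PDK4, those of UCP2, UCP3 and ANGPTL4, and the 2 brightest of PPARGC1A, against 16.1% of all tested probe sets. Restricted steer 3 had the highest in 6 of 15, against 15.7%. These counts are not of separate genes, since the 3 PDK4 probe sets ordered the steers almost alike. In UCP2, ANGPTL4 and PPARGC1A, which ranged over less than the spread of the array medians, constants added to the arrays can decide which steer is lowest or highest. In ANGPTL4 supplemented steer 1 was at -0.011 millionths, against -0.010 in restricted steer 3. Among the 34 probe sets with a range over 0.01 the steer that was lowest most often was supplemented steer 2, in 18. Supplemented steer 1 was lowest in 4 of these 34, 3 of them PDK4, and highest in 10.

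The age slopes of 2 of the 15 member probe sets, those of UCP2 and PDK4 Bt.13330.2.A1_at, had an unadjusted limma p under 0.05, and UCP2 alone followed the age order in both diets. Restricted steers were 598.3 ± 11.4 days old and supplemented steers 610.0 ± 9.17 days (SD, n = 3 each; two-sided exact permutation p = 0.2, where the smallest this design allows is 0.1). UCP2 was higher in each older steer of a diet in both groups, which 2.89% of all probe sets were. In a limma model with diet and age, chosen after seeing the data, its slope was 0.727 ± 0.123 millionths per 10 days (SE, unadjusted p = 0.00509, adjusted p = 0.865). An unadjusted p under 0.05 was reached by 4.68% of all age slopes, and 0 passed the adjusted threshold. With equal array medians the UCP2 slope was 2.63 millionths (unadjusted p = 0.111). Most of that is the slope of the shift itself: ANGPTL4, at -0.00198 millionths per 10 days without the shift, had 1.90 with it.

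PDK4 slopes on age were 0.00476 ± 0.00184, 0.00519 ± 0.00405 and 0.00821 ± 0.00278 log2 units per 10 days for Bt.13330.1.S1_at, Bt.23505.1.S1_at and Bt.13330.2.A1_at (limma, SE, unadjusted p = 0.0582, unadjusted p = 0.249 and unadjusted p = 0.0407). With age in the model the diet difference came to 0.00961, 0.0161 and 0.0187 log2 units in PDK4 (unadjusted p = 0.0606, unadjusted p = 0.115 and unadjusted p = 0.0305), or 2.52, 1.93 and 3.25 residual SDs. The slopes of UCP3 and of the 10 probe sets of ANGPTL4, PPARA, PPARD and PPARGC1A had unadjusted limma p values between 0.221 and 0.953 (UCP3 0.550). In UCP2 the diet difference with age in the model came to 1.34 millionths or 5.27 residual SDs (limma unadjusted p = 0.00723). UCP2 ranged over less than the spread of the array medians, so constants added to the arrays can set the direction of this value. Without age in the model its difference turned to -0.484 SDs with equal array medians. The limma adjusted p was 1 for all 15 members in this model, where 4.09% of all probe sets had an unadjusted p under 0.05, and 3 residual degrees of freedom stood behind each value. The replicate numbers of the labels run in order of age in both diets.

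**Figure D5:**
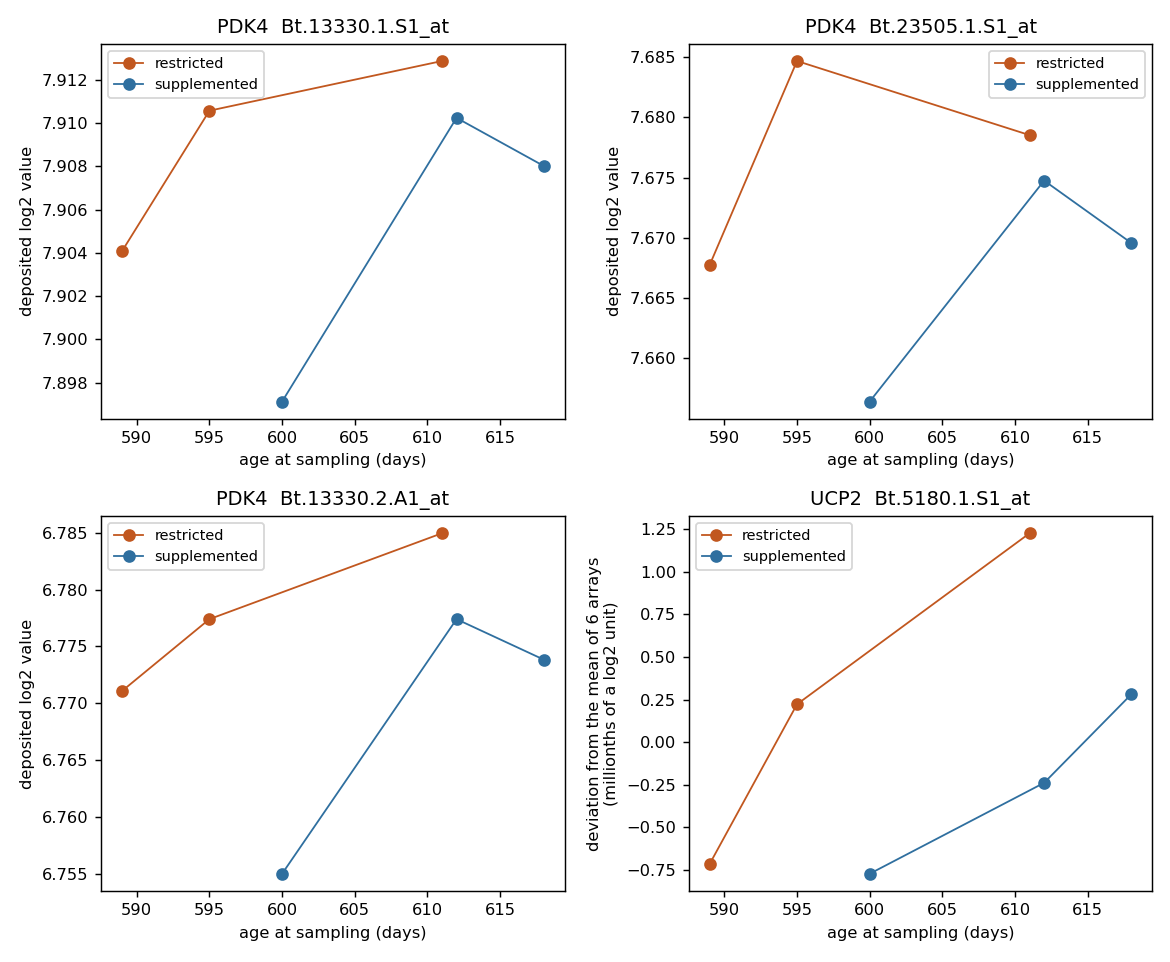
Value against age at sampling in days for the 3 PDK4 probe sets (deposited log2 value) and UCP2 (deviation from the mean of 6 arrays, in millionths of a log2 unit); each point is 1 steer, lines join steers of a diet, and y axes do not start at 0. In UCP2 the values follow age in both diets, while in PDK4 supplemented steer 3, aged 618 days, lies below supplemented steer 2, aged 612 days.

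Around these genes, lists of partners and pathway members were read from the same limma fit, each gene by its brightest probe set. No gene of any list passed the adjusted threshold (the p values given are limma's unadjusted ones), and their counts are set beside all 9155 genes, of which 49.5% were higher in restricted steers with a median difference of -0.00788 SDs. Of PPAR partners and coregulators 11 of 18 were measured, 5 higher and 6 lower, with a median of -0.161 SDs; with equal array medians 2 were higher and 9 lower. PPARG, the PPAR of fat cells, differed by 1.41 SDs (unadjusted p = 0.135; 0.301 SDs with equal array medians), the fatty acid carrier FABP5 by 1.17 SDs without overlap of the groups (unadjusted p = 0.195), and the corepressor NCOR1 by 1.08 SDs (unadjusted p = 0.228), turning to -0.232 SDs with equal array medians. RXRA, RXRB and RXRG, the retinoid X receptors, differed by -0.320, -0.191 and -0.161 SDs, and by -0.711, -0.690 and -0.791 SDs with equal array medians. Each of them ranged over less than the spread of the array medians.

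PDK4 phosphorylates the E1 alpha subunit of the pyruvate dehydrogenase complex, encoded by PDHA1. Of 13 listed genes of the complex, its other regulators and the pyruvate carrier 11 were measured, 9 higher and 2 lower in restricted steers, with a median of 1.25 SDs; with equal array medians 7 were higher, and with quantile normalization 0 were higher, 3 lower and the rest had no difference. The carrier subunits MPC2 and MPC1, which bring pyruvate into mitochondria, differed by 3.47 SDs without overlap of the groups (unadjusted p = 0.00829) and by 1.54 SDs (unadjusted p = 0.110). These were 1.98 and 0.260 SDs with equal array medians. PDHX, which anchors a subunit of the complex, differed by 1.91 SDs (unadjusted p = 0.0618; 1.16 SDs with equal array medians), also without overlap. Groups did not overlap in 3 of the 11 genes, against 800 of all 9155.

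Known targets of PPAR alpha or delta in fatty acid use were measured in 16 of 21 cases, 13 higher and 3 lower, with a median of 0.914 SDs. With equal array medians 10 were higher, and with quantile normalization 4 were higher and 1 lower. HADHA of the mitochondrial trifunctional protein differed by 2.57 SDs (unadjusted p = 0.0244), turning to -0.0474 SDs with equal array medians. MLYCD, malonyl-CoA decarboxylase, and ACADM, medium-chain acyl-CoA dehydrogenase, both differed by 1.94 SDs (unadjusted p = 0.0589 and unadjusted p = 0.0591). The groups did not overlap in any of these 3, nor in CD36 and HADHB, which makes 5 of 16, against 800 of all 9155 genes.

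In the list of inner membrane carriers, relatives of the uncoupling proteins, 5 of 10 measured genes were higher and 5 lower, with a median of 0.00832 SDs; with equal array medians 3 were higher and 7 lower. SLC25A14, also called UCP5, differed by -4.18 SDs (unadjusted p = 0.00430) and SLC25A11, the oxoglutarate carrier, by 2.69 SDs (unadjusted p = 0.0208), both without overlap, and SLC25A3, the phosphate carrier, by 0.794 SDs (unadjusted p = 0.355). The 3 values were -0.967, 2.57 and 0.282 SDs with equal array medians. In the lipoprotein lipase axis 5 of 9 measured genes were higher, with a median of 0.289 SDs, and 4 with equal array medians. There APOC2, the cofactor of the lipase, differed by -1.57 SDs without overlap (unadjusted p = 0.105; -0.952 SDs with equal array medians), ANGPTL2 by -1.22 SDs (unadjusted p = 0.182) and LPL by 1.15 SDs (unadjusted p = 0.201). In the PGC-1 alpha programme 8 of 11 were higher, 6 with equal array medians, with a median of 0.781 SDs. There the mitochondrial superoxide dismutase SOD2 differed by 1.21 SDs (unadjusted p = 0.183, lower with quantile normalization), PRKAA1, a catalytic subunit of AMP-activated kinase, by 1.12 SDs without overlap (unadjusted p = 0.214) and the transcription factor NRF1 by -0.858 SDs (unadjusted p = 0.322). SOD2 was at 0.0393, PRKAA1 at 0.451 and NRF1 at -1.09 SDs with equal array medians.

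Fat cells in the muscle also express several of these genes. All 5 measured adipocyte markers had higher values in restricted steers, 4 with equal array medians, and 0 passed the limma adjusted threshold while 1, CFD, had an unadjusted p under 0.05. Their summed deposited values ran from 30.94 to 30.97 in restricted steers, against 30.93 to 30.96 in supplemented steers. FABP4 and CIDEC ranged over more than 0.01, as did the fibroblast markers COL1A2, at 0.0398 the 6th widest of the table, and COL3A1. Of the other markers, 2 of 7 of muscle fibres, 2 of 6 of fibroblasts, 1 of 5 of lymphocytes, 5 of 6 of endothelium, 3 of 4 of red blood cells and 1 of 2 of nerve were higher in restricted steers. In the same order these counts were 2, 2, 1, 3, 0 and 1 with equal array medians. The red blood cell markers ranged over at most 7.02e-07 log2 units, so their count of 0 mostly shows the constants added. None of these other markers passed the limma adjusted threshold, and MYH1, a fast myosin (-3.46 SDs), and MBP of myelin (-3.15 SDs) had an unadjusted p under 0.05. The part of adipocytes or any other of these cell types in the values of the 7 genes was not tested.

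The genes whose pattern over the 6 arrays was most like a member are given by Pearson's r, as a description, among 7710 to 7713 probe sets of other genes with a mean above the median. For PDK4 they were NUP155 (r = 0.981), UQCRQ of respiratory complex III (0.9745) and ATP5F1E of the ATP synthase (0.968). For UCP3 they were SNUPN (0.985), SLC43A1 (0.983) and DCAF8 (0.975), and for UCP2 TDP2 (0.984), ZNRD2 (0.970) and DAZAP1 (0.965). For ANGPTL4 the closest was the second probe set of PPARGC1A, Bt.20920.1.S1_at (0.990), followed by PRKACB (0.984) and FRZB (0.980). The brightest probe set of PPARGC1A correlated with ANGPTL4 at r of 0.659, and at -0.172 without the 2 farthest steers. For PPARGC1A they were ACSL1 (0.9935), RPS9 (0.990) and VEGFB (0.981), for PPARA FBLN5 (0.993), ELOVL5 (0.987) and BABAM2 (0.983), and for PPARD SIAE (0.991), SRP72 (0.981) and COPS6 (0.974). With only 6 arrays such values are common: each member had between 47 and 73 probe sets with an r above 0.9.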

How the data were processed

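Muscle RNA of 3 restricted and 3 supplemented steers was measured on an Affymetrix 3′ expression array, with 100 ng total RNA labelled with biotin per the labels' protocols. The authors deposited 1 table of log2 values, 1 column for each array. How probes were summarised and normalized is not stated in those labels. That the scale is log2 is read from the values (4.807 to 12.673). Why the arrays differ so little is also unknown, so no fold change is given. The number of arrays limits the precision. Of 24128 probe sets 112 controls were left out, and 24016 were tested with limma 3.58.1 (R 4.3.3) on the deposited values, multiplied by 1e+09 for numerical precision, with p values adjusted by Benjamini-Hochberg over all of them and a threshold of 0.05. The fit had 4 residual degrees of freedom and a prior of 0.483. It was tested on simulated data with shifts many times larger than the differences reported here, so that test does not speak to differences of this size. Symbols are those of the platform annotation. Of the tested probe sets 13292 have 1 symbol, 86 several and 10638 none. The 7 genes and the lists of partners, pathway genes and markers were chosen with earlier results of these data known. From each list of partners and pathway genes the 3 genes with the lowest unadjusted p were named, and for each member the 3 genes with the highest r. PDK2, PDK3, UCP1, the retinoid X receptors, CD36, HADHB, ACTA1, CKM and the other markers were named after their values were seen. Lists use the brightest probe set of a gene. Alternatives were another alignment of the arrays, age as a covariate, the replicate block, level filters, other variance settings, and each steer left out in turn.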

Additional observations from a re-analysis of the deposited data

How the results depend on the processing

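In the alternatives run, 0 member probe sets passed the limma threshold, and the 3 of PDK4 kept their direction. All 15 were in these fits except the level filters, which kept 9 (median) and 10 (first quartile), and quantile normalization, with 7. The count over all probe sets, 1 as reported, was 22 with quantile normalization, where 20 of the 22 had no spread within a diet after the ranks were matched, 0 with age as a covariate, and 1 to 2 with a steer left out (2 without supplemented steer 3). Quantile normalization left 8 of the 15 member probe sets equal on all arrays and turned UCP3 to -0.8165 SDs and PPARD Bt.13264.1.S1_at to 0.8165 SDs. ANGPTL4 and PPARGC1A Bt.5814.1.A1_at were also at 0.8165 SDs, the size that results when 1 array differs and all others are equal. With equal array medians the differences turned to -0.484 in UCP2, -0.746 in ANGPTL4, -0.744 in PPARA Bt.12803.1.S1_at, -0.741 and -0.701 in PPARD Bt.22870.1.A1_at and Bt.22870.1.S1_at, and -0.201 and -0.497 SDs in PPARGC1A Bt.5814.1.A1_at and Bt.20920.1.S1_at. The same shift turned the age slopes to 1.90 in ANGPTL4, 1.89 and 1.89 in PPARA, and 1.66 and 1.76 millionths per 10 days in PPARGC1A Bt.20920.1.S1_at and Bt.12148.1.S1_at. The shift of the array medians exceeds the ranges of these probe sets. Their nearly equal slopes after it mostly give the slope of the array medians on age, and not that of the genes. PPARA Bt.12803.1.S1_at was -0.0872 SDs with age as a covariate, and PPARA -0.0638 SDs as the mean of its probe sets; the cause was not tested.

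With a steer left out in turn, differences ran from 0.0128 to 1.14, 0.662 to 1.81 and 0.376 to 1.40 SDs in the 3 PDK4 probe sets, from -0.00405 to 1.63 in UCP2, -0.132 to 1.85 in UCP3, -0.151 to 1.25 in ANGPTL4 and -0.534 to 1.04 in PPARA Bt.12803.1.S1_at. They ran from -1.05 to 0.917 in PPARD Bt.13264.1.S1_at, -0.525 to 1.04 in Bt.22870.1.S1_at, -0.0659 to 1.44 in PPARGC1A Bt.20920.1.S1_at and -1.08 to 0.504 SDs in Bt.12148.1.S1_at. Without a turn of sign they ran from -2.92 to -0.556 in PPARA Bt.18241.1.A1_at, 0.622 to 2.11 in PPARD Bt.22870.1.A1_at, 0.453 to 1.39 in PPARGC1A Bt.5814.1.A1_at and -2.58 to -0.462 SDs in Bt.5823.1.S1_at. The sign turned without restricted steer 3 in UCP2 and Bt.12148.1.S1_at, without restricted steer 2 in ANGPTL4, PPARD Bt.13264.1.S1_at and Bt.22870.1.S1_at, and Bt.20920.1.S1_at, without supplemented steer 1 in UCP3, ANGPTL4 and Bt.20920.1.S1_at, and without supplemented steer 2 in PPARA and Bt.12148.1.S1_at. The age difference ran from -18 to -7 days.

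Same-numbered steers deviated together at r of 0.0374, 0.0151 and 0.0152 over probe sets, against -0.0214 to 0.00610 for differently numbered steers. The same-numbered values were the highest, but all are small, and the numbers also run in order of age. Whether the numbers pair the steers cannot be told from these values. With the replicate number as a block 0 of all probe sets and 0 members passed, and PDK4 was 1.69, 11.8 and 1.56 residual SDs. The 11.8, of Bt.23505.1.S1_at, had a limma adjusted p of 0.862. The block leaves fewer residual degrees of freedom than the 4 of the main fit, so these residual SDs are poorly estimated.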
